A study of Mus musculus with 2 samples.

Results

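The miR-106b-25 and miR-106a-363 clusters are the 2 paralogs of the miR-17-92 cluster, and together they hold 9 of the 1973 miRNA genes counted in these data. The members were taken by gene symbol and not by a measured value, although earlier results of these data were known at the time. Mir106b, Mir93 and Mir25 form miR-106b-25, and Mir106a, Mir18b, Mir20b, Mir19b-2, Mir92-2 and Mir363 form miR-106a-363. Small RNA libraries (inserts under 30 bases) had been made from the neural tubes of pup 2 and pup 1, newborn littermates of strain B6NCrl at postnatal day 0. The animals carried no stated allele or treatment and their sex was not collected, so the design has 1 group of 2 libraries and no contrast between conditions. The libraries held 3660693 own-strand miRNA counts in pup 2 and 3216453 in pup 1, and levels are given as CPM, counts scaled to 1000000 own-strand miRNA counts. Each tube was processed whole, so fewer cells that make a miRNA and less of it per cell cannot be told apart. Each pup gave 1 library, so the spread between pups cannot be told apart from that between library preparations.

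A miRNA gene gives a hairpin precursor from which a short mature RNA is cut. The mature RNA guides the silencing complex to messenger RNAs that pair with its seed, the bases 2 to 8 from its 5′ end. The miR-17-92 cluster and its paralogs arose by duplication of an ancestral cluster and are known in mouse for promoting proliferation and survival, in part by repressing the cell cycle inhibitor Cdkn1a and the death factor Bcl2l11. In mouse, loss of miR-17-92 is lethal at birth, whereas animals lacking either paralog are viable. The miR-106b-25 cluster has been studied in neural stem and progenitor cells of the mouse, where it favours proliferation.

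The 9 genes fall into 4 seed groups, and the mature sequences of their main arms (RefSeq, GRCm38.p6) are shown because the counts below are read by seed. Capitals mark the seed. The first 4 share the miR-17 seed, the next has the miR-18 seed, the next the miR-19 seed and the last 3 the miR-92 seed.
miR-106b-5p: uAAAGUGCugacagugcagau
miR-93-5p: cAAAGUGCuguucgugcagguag
miR-106a-5p: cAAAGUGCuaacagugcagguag
miR-20b-5p: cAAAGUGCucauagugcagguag
miR-18b-5p: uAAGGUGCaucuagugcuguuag
miR-19b-3p: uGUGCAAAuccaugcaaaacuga
miR-92a-3p: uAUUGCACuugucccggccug
miR-25-3p: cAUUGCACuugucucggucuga
miR-363-3p: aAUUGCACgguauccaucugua

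Outside the seed the members differ to unequal degrees. With positions counted from 1 at the 5′ end and miR-17-5p of the miR-17-92 cluster as the first base, miR-106a-5p differed at U10A only. By the same count miR-20b-5p differed at U10C and C12U, and miR-106b-5p at C1U, U10G and G20A over 21 compared bases. miR-93-5p differed at U10G, A11U, C12U and A13C, a block of 4 neighbouring bases just beyond the seed. From miR-92a-3p, miR-25-3p differed at U1C, C14U and C18U, whereas miR-363-3p was identical at only 10 of 21 positions, 7 of them its seed. The sequence they were set against is the following.
miR-17-5p: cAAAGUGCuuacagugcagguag

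For 2 of the 9 genes the main mature RNA is also made elsewhere. The sequence of miR-19b-3p lies in the hairpins of both Mir19b-2 and Mir19b-1, and that of miR-92a-3p in those of Mir92-2 and Mir92-1, by exact search of 1005 RefSeq hairpins. The main arms of the other 7 members matched only their own hairpin. The longest stretch shared with another hairpin was 25 bases for Mir19b-2 and 22 bases for Mir92-2, against 12 to 17 bases for the others. Multimapping reads stood apart from all genes in the deposited counts (35.4% of reads in pup 2 and 35.7% in pup 1), so the counts of Mir19b-2 and Mir92-2 are uniquely placed reads and not levels of miR-19b and miR-92a. Reads of their other arm are unique to each gene, as these sequences of Mir92-2 and Mir92-1 show, and the deposited counts do not tell the arms apart.
miR-92a-2-5p: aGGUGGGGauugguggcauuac
miR-92a-1-5p: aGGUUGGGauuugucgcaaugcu

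The clusters lie in different surroundings. The miR-106b-25 hairpins span 498 bases of chromosome 5 (138165321 to 138165818, minus strand, mm10), inside Mcm7, which encodes a subunit of the DNA helicase that opens replication forks. Mir106b lies in introns of both Mcm7 transcripts that span it, and Mir93 and Mir25 in introns of all but 1 of the 3 that span them, the last having an exon that overlaps them. The miR-106a-363 hairpins span 875 bases of chromosome X (52741693 to 52742567, minus strand). GENCODE M21 places no same-strand transcript around them. The noncoding gene Kis2 lies just upstream on the same strand (52742563 to 52744960), and its end overlaps Mir106a, the first hairpin, by 5 bases. Whether Kis2 transcripts run on through the cluster was not tested. Each hairpin is 65 to 91 bases long, and a read covers a whole mature miRNA, so counts of different genes were not divided by length.

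All 3 genes of miR-106b-25 and 5 of the 6 genes of miR-106a-363 were detected, that is, had at least 10 counts in both pups. Over all genes 352 of 1973 (17.8%) were detected. The exception was Mir19b-2 with 5 counts in pup 2 and 4 in pup 1. At this depth a count of 0 allows up to 3 counts, or 0.820 CPM in pup 2 and 0.933 CPM in pup 1, so Mir19b-2 lay just above that limit. Opposite-strand counts at the 9 genes were 0 apart from 1 count at Mir93 in pup 2.

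The highest levels belonged to the first and second hairpin of miR-106b-25. Mir106b, whose mature miRNA carries the miR-17 seed, had 2727 CPM in pup 2 and 3249 CPM in pup 1, a mean of 2988 CPM ± 369 (SD, n = 2) and rank 48 of all genes. Mir93, the other gene of that seed in the cluster, had 2556 CPM in pup 2 and 2599 CPM in pup 1, a mean of 2578 CPM ± 30.5 and rank 54. The pups were thus nearly level for Mir93 and further apart for Mir106b, and in both pups Mir106b was the higher. Mir25, the last hairpin, had 216 CPM in pup 2 and 248 CPM in pup 1, a mean of 232 CPM ± 22.8 and rank 165. Mir93 stood 11.9-fold above Mir25 in pup 2 and 10.5-fold above it in pup 1, although the whole cluster spans 498 bases.

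In miR-106a-363 the level, by uniquely placed reads, did not follow the order of the hairpins. Mir363, the last hairpin and a carrier of the miR-92 seed, was the highest, with 152 CPM in pup 2 and 162 CPM in pup 1 (157 CPM ± 7.11, SD, n = 2; rank 189). Mir106a, the first hairpin, had 109 CPM in pup 2 and 120.3 CPM in pup 1 (115 CPM ± 8.01, rank 203). Mir20b, the other gene with the miR-17 seed, had 105 CPM in pup 2 and 113 CPM in pup 1 (109 CPM ± 5.41, rank 208). These 3 genes held most of the cluster, and each was a little lower in pup 2. The other 3 genes were lower. Mir92-2 had 87 counts in pup 2 and 71 in pup 1 (22.9 CPM ± 1.196), and Mir18b had 72 counts in pup 2 and 53 in pup 1 (18.1 CPM ± 2.26). Mir19b-2 stood at 1.30 CPM ± 0.086.

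**Figure D1:**
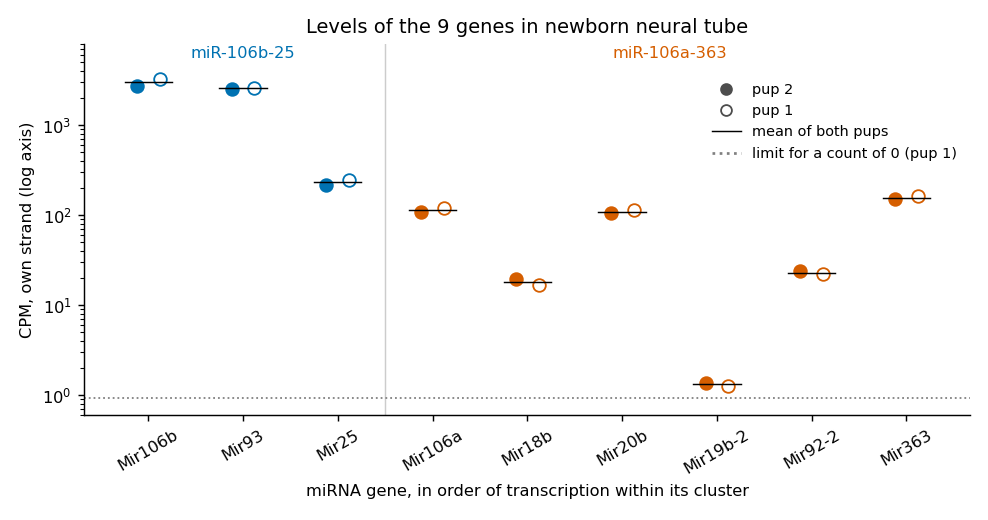
CPM on a log axis (own-strand counts) of the 9 genes in pup 2 (filled) and pup 1 (open), with the mean of both as a line, grouped by cluster and in order of transcription; the dotted line is the limit that a count of 0 allows in pup 1. Mir106b and Mir93 lie between 2556 and 3249 CPM, Mir25 with Mir363, Mir106a and Mir20b between 105 and 248 CPM, and Mir19b-2 just above the dotted line.

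Ordered by level, neighbouring members were set against the 95% normal limit of the SD of log2(CPM + 1), pooled over detected genes of like abundance. Mir106b and Mir93 did not differ beyond this spread (log2 difference 0.21, limit 0.32). Mir93 lay above Mir25 (3.47, limit 0.37), and Mir25 above Mir363 (0.56, limit 0.44). Mir363 and Mir106a missed the limit narrowly (0.45, limit 0.46), Mir106a and Mir20b did not differ (0.08, limit 0.46), and Mir20b lay above Mir92-2 (2.20, limit 0.59). Mir92-2 and Mir18b did not differ (0.33, limit 0.70), and Mir19b-2 was not placed because it was not detected. Of the neighbouring pairs, 3 were thus apart and 4 were not, and members that are not neighbours in this order were not compared by this rule. A bias towards some sequences that is common to both libraries does not enter this spread. The genes nearest in mean level were Mir652 (3010 CPM) and Mir708 (2834 CPM) around Mir106b, Mir98 (2610 CPM) and Mir1983 (2488 CPM) around Mir93, and Mir222 (233 CPM) and Mir30b (228 CPM) around Mir25.

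**Figure D2:**
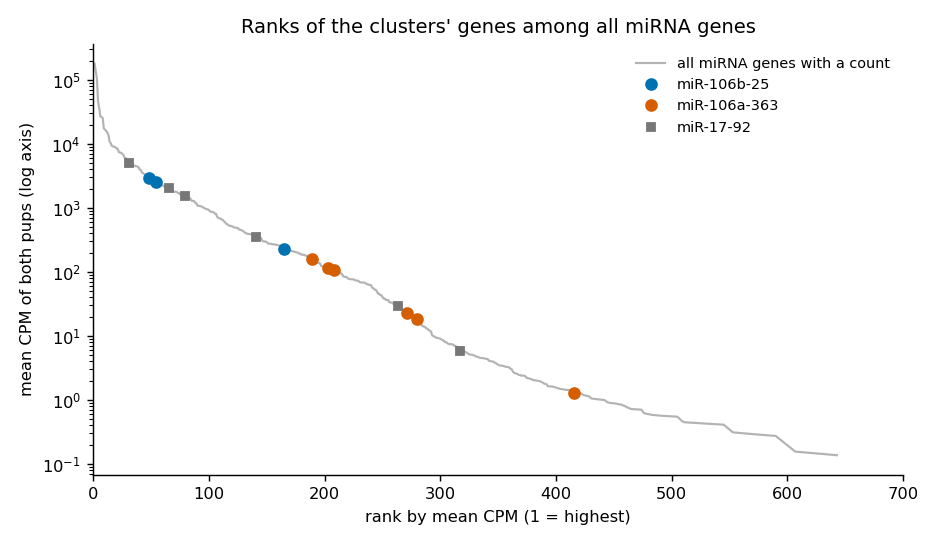
Mean CPM of both pups (log axis) against rank for every miRNA gene with a count (grey line), with the genes of the 3 paralogous clusters marked. Mir106b and Mir93 lie at ranks 48 and 54, while the genes of miR-106a-363 lie from rank 189 (Mir363) to rank 416 (Mir19b-2).

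Set against each other as wholes by uniquely placed reads, miR-106b-25 was the more abundant cluster. Main-arm reads of Mir92-2 and Mir19b-2 that fit another gene are uncounted, whereas the main arms of miR-106b-25 are unique. How far this raises the ratio was not tested. Its 3 genes summed to 5498 CPM in pup 2 and 6096 CPM in pup 1 (5797 CPM ± 422, or 0.580% of counts), whereas the 6 genes of miR-106a-363 summed to 410.3 CPM in pup 2 and 434 CPM in pup 1 (422 CPM ± 16.99, or 0.0422%). The ratio was 13.4 in pup 2 (exact 95% interval 12.7 to 14.1) and 14.0 in pup 1 (13.3 to 14.8), and the log2 ratio averaged 3.78 ± 0.05 (SD, n = 2). The difference was thus many times the spread between the pups. With 2 pups no permutation test could pass 0.05, so no p-value is given; the intervals cover counting error only, as reads carried no stated molecular identifiers. Per gene, miR-106b-25 averaged 1932 CPM and miR-106a-363 averaged 70.4 CPM.

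The difference between the clusters depended on the seed. For the miR-17 seed, Mir106b and Mir93 together held 24.7 times the counts of Mir106a and Mir20b in pup 2 (23.0 to 26.6) and 25.1 times in pup 1 (23.3 to 27.1). For the miR-92 seed, which is recognised in targets such as Bcl2l11, Mir25 held only 1.23 times the counts of Mir92-2 and Mir363 in pup 2 (1.11 to 1.37) and 1.35 times in pup 1 (1.21 to 1.503). The intervals of the miR-17 and miR-92 ratios did not overlap in either pup. Because reads of miR-92a that fit both of its genes are uncounted, the miR-92 ratio holds for uniquely placed reads; against Mir363 alone, Mir25 held 1.42 times the counts in pup 2 and 1.53 times in pup 1. Neither the miR-18 nor the miR-19 seed has a gene in miR-106b-25.

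The make-up of the clusters differed accordingly. The miR-17 seed took 96.1% of miR-106b-25 in pup 2 and 95.9% in pup 1, and Mir25 the remaining 3.92% in pup 2 (exact 95% interval 3.66 to 4.197) and 4.07% in pup 1 (3.79 to 4.35). In miR-106a-363 the miR-17 seed held 52.1% in pup 2 and 53.6% in pup 1. There the genes of the miR-92 seed held 42.7% in pup 2 (40.2 to 45.3) and 42.3% in pup 1 (39.7 to 44.9). Mir363 gave 86.4% of this part in pup 2 and 88.0% in pup 1, and made up 37.0% and 37.2% of the cluster. Main-arm reads of Mir92-2 and Mir19b-2 that fit another gene are uncounted, so all shares in miR-106a-363 hold for uniquely placed reads. Mir18b held 4.79% in pup 2 and 3.79% in pup 1, and Mir19b-2 held 0.333% in pup 2 and 0.286% in pup 1. The shares of the seeds were nearly the same in both pups, with an SD of at most 1.05 percentage points.

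**Figure D3:**
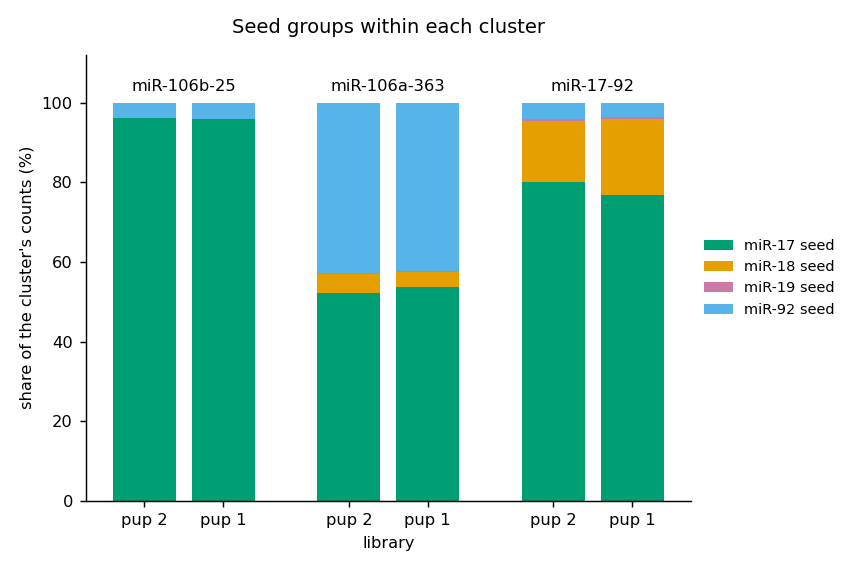
Share of each cluster's own-strand counts (%) held by genes of the miR-17, miR-18, miR-19 and miR-92 seeds, as stacked bars from 0 to 100% for pup 2 and pup 1. The miR-92 seed takes 42.7% and 42.3% of miR-106a-363, against 3.92% and 4.07% of miR-106b-25. Reads that fit more than 1 gene, among them those of miR-92a-3p and miR-19b-3p, are left out of these shares.

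The miR-17-92 cluster itself, on chromosome 14, is the nearest relative of both. Its 6 genes summed to 9191 CPM in pup 2 and 8924 CPM in pup 1, above the summed miR-106b-25 (ratio of miR-106b-25 to miR-17-92 0.598 in pup 2 and 0.683 in pup 1). Taken as a mean per gene of uniquely placed reads, the order was the reverse, since miR-106b-25 has 3 genes and miR-17-92 has 6. Both paralogs together held 39.1% (pup 2) and 42.3% (pup 1) of the counts of the 3 clusters. Mir92-1, the gene of the miR-92 seed in miR-17-92, held 4.11% of the cluster's counts in pup 2 and 3.68% in pup 1. For Mir92-1, too, only uniquely placed reads are counted, so reads of miR-92a-3p that also fit Mir92-2 are left out. These values are thus no level of the miR-92 seed and no like measure to the share of Mir25.

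Position by position, miR-106a-363 and miR-17-92 keep the same order of seeds, except that miR-17-92 has Mir19a in addition and no counterpart of Mir363. Mir106a held 399 counts in pup 2 and 387 in pup 1, against 19177 and 15757 for Mir17, so that Mir17 stood 48.1-fold higher in pup 2 and 40.7-fold higher in pup 1. Mir20b held 384 counts in pup 2 and 362 in pup 1, against 7727 and 6315 for Mir20a, which stood 20.1-fold higher in pup 2 and 17.4-fold higher in pup 1. Mir18b held 72 counts in pup 2 and 53 in pup 1, against 5229 and 5465 for Mir18, which stood 72.6-fold higher in pup 2 and 103.1-fold higher in pup 1. The exact intervals for Mir18 over Mir18b ran from 57.6 to 92.97 in pup 2 and from 78.7 to 138 in pup 1, wide because Mir18b had few counts. Mir92-1 stood 15.9-fold above Mir92-2 in pup 2 and 14.9-fold in pup 1. The counterparts therefore differed by unequal factors, the smallest among genes with a unique main arm being that of the miR-20 pair. As miR-106a-5p and miR-17-5p differ by 1 base, how reads with an error at that base were counted was not tested.

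**Figure D4:**
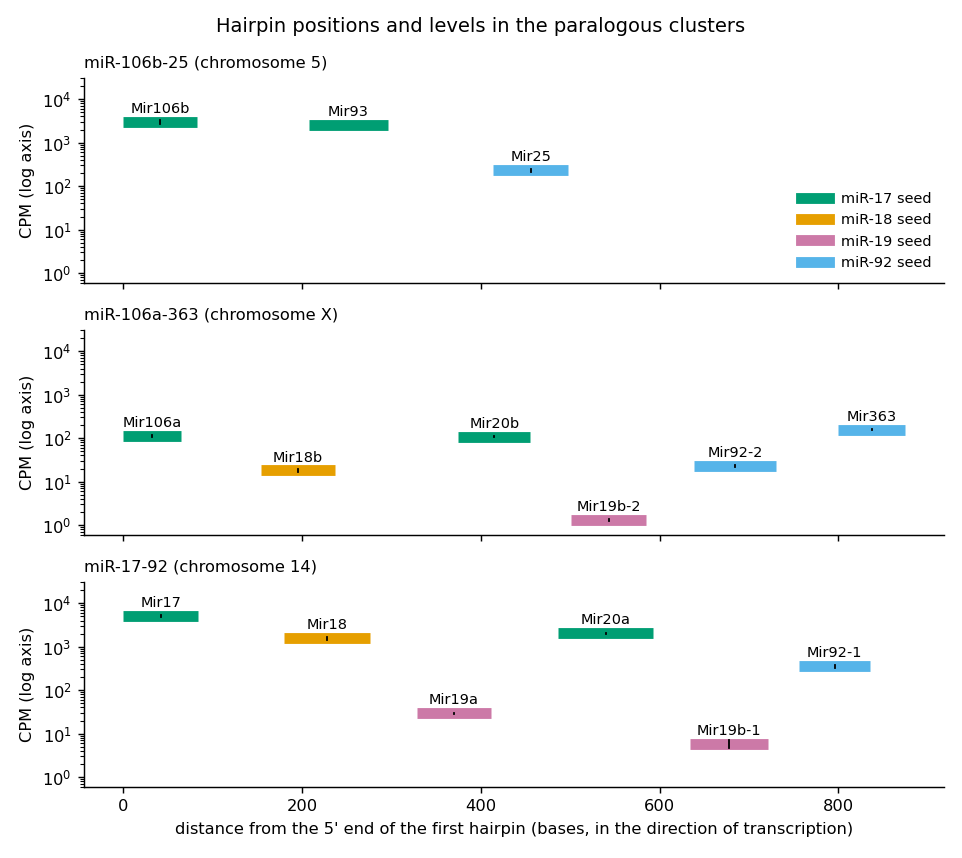
Hairpins of the 3 paralogous clusters drawn to scale by distance from the 5′ end of the first hairpin (bases, in the direction of transcription), at their mean CPM on a log axis; colour gives the seed group and the thin black line joins pup 2 and pup 1. By uniquely placed reads, the miR-19 hairpins are the lowest of miR-106a-363 and of miR-17-92, and Mir363 is the highest of its cluster although it is the last hairpin.

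Genes of the miR-19 seed had few counts in either cluster that holds them. Besides Mir19b-2, Mir19b-1 had 26 counts in pup 2 and 15 in pup 1, and Mir19a had 105 in pup 2 and 97 in pup 1. The main arm of Mir19a matched no other hairpin exactly, and differed from miR-19b-3p by 1 base. Of the summed counts of all 3 clusters, the 3 miR-19 genes made up 0.246% in pup 2 and 0.233% in pup 1. Reads of miR-19b-3p that fit both Mir19b-2 and Mir19b-1 are uncounted, so these values are not the share of the miR-19 seed. By the same uniquely placed reads, the miR-17 seed made up 85.1% in pup 2 and 83.7% in pup 1.

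Genes outside the 3 clusters also carry these seeds. For the miR-92 seed the highest by counted reads was Mir92b on chromosome 3, with 1652 CPM in pup 2 and 1623 CPM in pup 1 (1638 CPM ± 21.1). Outside the clusters it was followed by Mir32, with 141 CPM in pup 2 and 149 CPM in pup 1. Mir367 had 0 counts in both pups. Of the counted reads of miR-92 seed genes, Mir25, Mir92-2 and Mir363 held 15.3% in pup 2 and 17.05% in pup 1. Reads of miR-92a-3p that fit both Mir92-1 and Mir92-2 are uncounted, so the share of the whole seed was not measured. For the miR-17 seed the position was different. Mir106b, Mir93, Mir106a and Mir20b held 42.8% of its counts in pup 2 and 47.0% in pup 1, the rest lay in Mir17 and Mir20a, and the only other gene, Mir6383, had 0 counts. Mir18b held 1.36% of the miR-18 seed counts in pup 2 and 0.960% in pup 1.

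Between the pups, 167 of the 413 genes tested (40.4%) were called different (exact binomial test, two-sided, p adjusted by Benjamini-Hochberg over all of them), 105 higher and 62 lower in pup 2. This compares 2 libraries and holds counting error only. Of the 8 members tested, 2 were called, both lower in pup 2 and both in miR-106b-25, so the members were not called more often than genes as a whole. Their median log2 ratio of pup 2 over pup 1 was -0.10 (range -0.25 to 0.25), against 0.04 over all tested genes. Mir19b-2 had too few counts to be tested.

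Mir106b was the member with the clearest difference. It had 9982 counts in pup 2 and 10449 in pup 1, a log2 ratio of -0.25 (exact 95% interval -0.29 to -0.21; adjusted p = 7.9e-35 by the exact binomial test). Mir25, with 789 counts in pup 2 and 797 in pup 1, had a log2 ratio of -0.20 (-0.35 to -0.06; adjusted p = 0.016, exact binomial test). Mir93, which lies between them, had 9357 counts in pup 2 and 8360 in pup 1 and a log2 ratio of -0.02 (-0.07 to 0.02; adjusted p = 0.43, exact binomial test). With TMM or DESeq2 scaling Mir93 was called lower as well (log2 ratio -0.07 with either; adjusted p = 0.0084 and 0.0081 by the exact binomial test). The ratio of Mir106b to Mir93, which no scaling can move, was 1.07 in pup 2 (exact interval 1.04 to 1.10) and 1.25 in pup 1 (1.21 to 1.29). These intervals did not overlap, although both hairpins lie within Mcm7.

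None of the 5 tested genes of miR-106a-363 was called by the binomial test, and none had an unadjusted p under 0.05. Their log2 ratios were -0.14 for Mir106a (-0.35 to 0.06), -0.10 for Mir20b (-0.31 to 0.11), -0.09 for Mir363 (-0.27 to 0.08), 0.10 for Mir92-2 (-0.36 to 0.58) and 0.25 for Mir18b (-0.28 to 0.80). All 5 intervals include the value of Mir106b as well as 0. For Mir18b and Mir92-2, with 53 to 87 counts per pup, a difference of that size was not detectable at this depth. Summed, the log2 ratio was -0.15 for miR-106b-25 (-0.18 to -0.12), -0.08 for miR-106a-363 (-0.19 to 0.02) and 0.04 for miR-17-92 (0.02 to 0.07). In miR-17-92, Mir17 (0.10), Mir20a (0.10) and Mir92-1 (0.20) were called higher and Mir18 (-0.25) lower in pup 2, and Mir19a and Mir19b-1 were not called. Genes of 1 cluster thus differed between the pups in unequal amounts in miR-106b-25 and in both directions in miR-17-92.

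**Figure D5:**
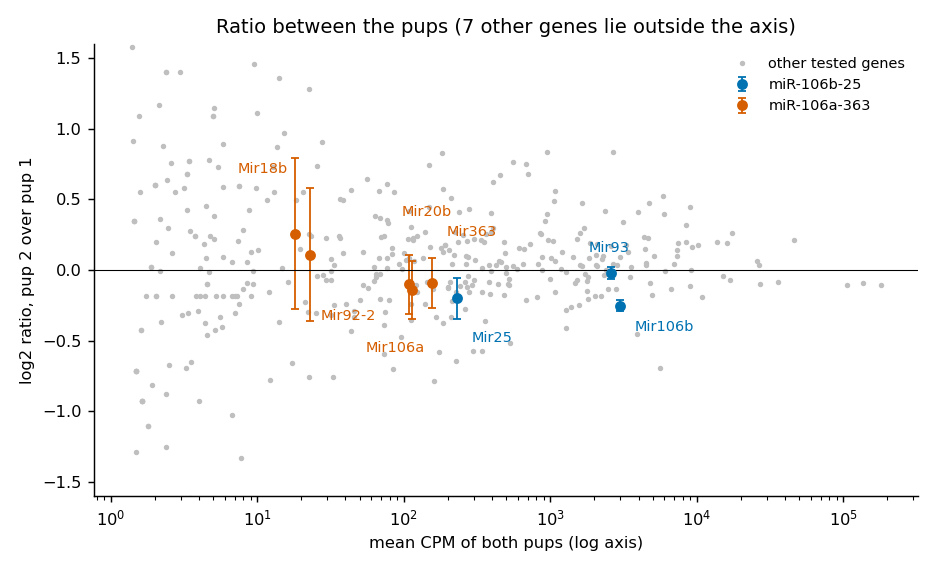
Log2 ratio of pup 2 over pup 1 against mean CPM (log axis) for all tested genes (grey), with members in colour and exact 95% binomial intervals as bars; 7 other genes lie outside the axis. The intervals of Mir106b and Mir25 exclude 0, and those of Mir93 and of the 5 tested genes of miR-106a-363 include it.

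On chromosome X, 40 of 120 miRNA genes in the table were detected (33.3%), against 312 of 1774 on other chromosomes (17.6%). By mean level Mir363 ranked 22 among the X-linked genes, Mir106a 25, Mir20b 26, Mir92-2 33, Mir18b 35 and Mir19b-2 45. By uniquely placed reads, all genes of miR-106a-363 thus lay below 189 CPM, the median of the 40 detected genes of that chromosome. Without a recorded sex, levels of the X-linked cluster by sex could not be given.

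The tissue label was checked against marker miRNAs. Neural genes (9 of 12 in the table detected) summed to 26161 CPM in pup 2 and 22677 CPM in pup 1, of which Mir137 alone held 17125 and 15027 CPM. The other neural genes held the rest of these sums, so not all of them were low. Low ones in pup 2 and pup 1 included Mir9-2 with 7 and 3 counts, Mir124a-3 with 10 and 7, and Mir124a-1 with 50 and 20. Multimapping reads are uncounted, and their part in low counts of markers was not tested. Motor neuron genes summed to 325 CPM in pup 2 and 301 CPM in pup 1. The Hox-linked genes Mir10a, Mir10b and Mir196b, which mark posterior levels of the axis, summed to 309851 and 334557 CPM. Endothelial Mir126a stood at 26007 CPM in pup 2 and 27838 CPM in pup 1. In the same order, genes of red blood cells summed to 152 and 128 CPM, of white blood cells to 423 and 362 CPM, of epithelium to 527 and 491 CPM, of muscle to 105 and 70.6 CPM with Mir1a-1 at 0, and Mir122 of liver stood at 64.2 and 104.2 CPM. None of these lists was at 0 as a whole, and the part of any cell type in the levels of the clusters was not tested.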

How the data were processed

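Each library's deposited table held the authors' raw counts of reads per miRNA gene on either strand, the gene's own strand and the opposite strand. The build was mm10 with GENCODE M4, per the text deposited with them; the aligner and counter were not given in the sources used here. Rows naming no gene were left out of totals; they held 11.0% (unmapped), 35.4% (multimapping) and 2.82% (no feature on the own strand) of reads in pup 2, and 10.8%, 35.7% and 2.97% in pup 1, with 0 ambiguous. Own-strand counts were scaled to CPM. Symbols and positions came from GENCODE M21 on mm10; 1894 of 1973 Ensembl identifiers matched.

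Means and SDs are over the 2 libraries. The pups were compared by an exact two-sided binomial test given the totals (the smaller tail doubled), for genes with at least 10 counts summed, Benjamini-Hochberg adjusted over all tested genes at 0.05; edgeR's own test needs replicates that 1 library per pup does not give. Log2 ratios between pups had 0.5 added to each count. Intervals are Clopper-Pearson (95%). Pooled SDs used 4 classes of abundance. The test was checked on simulated counts that held counting error only and were scaled by genes known to be unchanged. That check says nothing of the spread between real libraries. Named genes were the 9 members, the miR-17-92 genes, genes sharing a member's seed, the neighbours in level of the 3 highest members, and the marker lists; Mir9-1 and Mir1a-2 were not analysed here. Members and lists were chosen with earlier results of these data known. Alternatives covered either-strand counts, other denominators, pseudocounts and count minimums, scaling by TMM or DESeq2, and each pup left out. Software was Python 3.11.15 (scipy 1.17.1, numpy 2.4.6, pandas 2.3.3, matplotlib 3.10.9) and R 4.3.3 (DESeq2 1.42.0, edgeR 4.0.16).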

Additional observations from a re-analysis of the deposited data

How the results depend on the processing

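The excess of miR-106b-25 over miR-106a-363 kept its direction under every alternative run. Its log2 ratio was 3.86 without Mir19b-2 and Mir92-2, whose main arms are not unique. Both genes lie in miR-106a-363, so leaving them out could only raise the ratio. No alternative added their multimapping reads, so the effect of those reads on the ratio was not tested. As a mean per gene the log2 ratio was 4.78, by construction of the unequal number of genes. The log2 ratio of miR-106b-25 over miR-17-92 was -0.65 on sums and 0.35 as a mean per gene, reversed for the same reason. Summed levels became 7079 CPM (miR-106b-25) and 516 CPM (miR-106a-363) without Mir10b, the most abundant gene, in the total, and 2936 and 214 per 1000000 of all reads, by construction of the denominator. Of the other values of the main results under alternatives, 55 stayed within the spread or within 1.5 times the main count; leaving out 1 of 2 pups cannot move a mean beyond its SD, so those values say nothing of stability. The binomial test called 157 to 180 genes across settings, and 2 members in each except TMM and DESeq2 scaling, where Mir93 made 3; adding the two-sided p by likelihood, chosen after seeing the data, gave 169 genes and 2 members. No paired analysis was possible because the design has 1 group. Depth limits Mir19b-2, Mir18b and Mir92-2.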
